A study of Mus musculus with 4 samples.

Results

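Expression of 40 genes of glycolysis and of the hypoxia response was followed in mouse embryonic stem cells (ESCs), with the samples labelled WT set against those labelled *Zfp296* KO. The 40 genes were taken by symbol from the deposited count tables, and all 40 had a row among the 48526 gene rows. They fall into 6 groups by role, with 2 glucose transporters, 15 glycolytic enzymes, 4 genes of lactate dehydrogenase and lactate transport, 3 regulatory kinases, 4 genes of the HIF subunits and their oxygen sensors, and 12 HIF targets that are not part of glycolysis (HIF-only targets).

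Both groups are labelled as ESCs. By the methods these were R1 cells, an established male mouse ESC line, grown on gelatine in serum medium with LIF and the kinase inhibitors PD0325901 and CHIR99021. The WT group holds 2 replicates labelled as wild type. The KO2 group holds 2 replicates labelled as clone 2, a single clone obtained with Cas9, a guide RNA against exon 1 of *Zfp296* and puromycin selection, so differences between the groups include whatever else sets the libraries of that clone apart. ZFP296 is a zinc finger protein that binds the NuRD chromatin complex in ESCs. Total RNA was depleted of ribosomal RNA and sequenced in strand-specific libraries.

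Glycolysis splits glucose into pyruvate in the cytoplasm, and lactate dehydrogenase then converts pyruvate to lactate, which leaves the cell through monocarboxylate transporters. The hypoxia-inducible factors (HIFs) pair an oxygen-regulated alpha subunit with ARNT. When oxygen is present, the EGLN prolyl hydroxylases mark the alpha subunit for destruction by the VHL ubiquitin ligase. When oxygen is scarce, HIF switches on most glycolytic genes together with genes of other functions, such as the growth factor gene *Vegfa* or the mitophagy gene *Bnip3*. Pluripotent cells are known for a high rate of glycolysis even in oxygen. Under oxygen, HIF controls its targets largely through the stability of the HIF alpha protein, which transcript counts do not measure.

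Counts on genes summed to between 2829914 and 7470907 per library, and both KO2 libraries were deeper than both WT libraries, so depth and group cannot be told apart. Transcripts of the targeted gene and of the Y chromosome were higher in KO2 than in WT, which the labels alone do not account for. No other transcript was used to check the labels, and whether they are right was not tested. The targeted gene *Zfp296* had 11.6 and 7.33 CPM (counts scaled to library size) in WT and 52.8 and 37.7 CPM in KO2, which is higher in the libraries labelled KO (log2 fold change 2.31 ± 0.284 (SE), adjusted p = 4.55e-05 with edgeR). Counts over a whole gene do not show a small change in its reading frame. The Y-linked *Eif2s3y* had 0 counts in both libraries labelled WT and 2014 and 2119 counts in those labelled KO2, although R1 is a male line. WT and KO2 below therefore mean the libraries so labelled, every direction follows these labels, and no result could be given without the libraries concerned, since these are both libraries of a group. The summed level of 11 pluripotency markers was 4795 and 4682 CPM in WT and 4275 and 4200.0 CPM in KO2, so that both KO2 libraries lay below both WT libraries. The sums of the fibroblast, endoderm, mesoderm and trophoblast lists were each at most 17.2 CPM. The neural list summed to 146 and 142 CPM in WT and 192 and 185 CPM in KO2. Almost all of it came from *Nes* and *Tubb3*, neither of which passed the threshold (adjusted p = 0.158 and 0.164, edgeR), while *Olig2* and *Neurod1* were at 0 in every library. *Pax6* was too low to be tested, with 0 and 1 counts in WT and 13 and 6 counts in KO2. Of the 11 pluripotency markers, *Sox2* was lower in KO2 (log2 fold change -0.79) and the other 10 did not pass the threshold. *Sox2* had 873 and 806 CPM in WT and 483 and 489 CPM in KO2. The log2 fold changes of 7 of the 11 lay below 0, while those of *Pou5f1* and *Nanog* were 0.09 and 0.22. The part of these differences in the results below was not tested.

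Of the 40 genes, 37 passed the filter on low counts and entered the quasi-likelihood test of edgeR, among 12883 genes in all. Levels are in CPM scaled by the TMM method, fold changes are log2 of KO2 over WT, and a gene was called at an adjusted p below 0.05 (Benjamini-Hochberg over all tested genes). Of the 37, 11 were lower in KO2 (29.7%, against a background of 3.04% of all tested genes called lower) and 1 was higher (2.70%, against 2.61%), while 25 did not pass the threshold. In either direction 5.64% of all tested genes were called. The median level was 93.3 CPM over the 37 genes and 22.5 CPM over all tested genes, and the background was not matched for level here or below. The 11 were the enzyme genes *Hk2*, *Pfkl*, *Pfkp*, *Tpi1*, *Pgam1* and *Pkm2*, the lactate genes *Ldhb* and *Slc16a3*, the kinase gene *Pdk1* and the HIF-only targets *Bnip3* and *P4ha1*. The gene that was higher was *Ak4*, also a HIF-only target. Over the 37 genes the median log2 fold change was -0.31 and 26 lay below 0, whereas the median over all tested genes was 0.01 and 48.6% of them lay below 0. In bulk libraries, fewer cells that express a gene and less of its RNA per cell cannot be told apart.

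**Figure D1:**
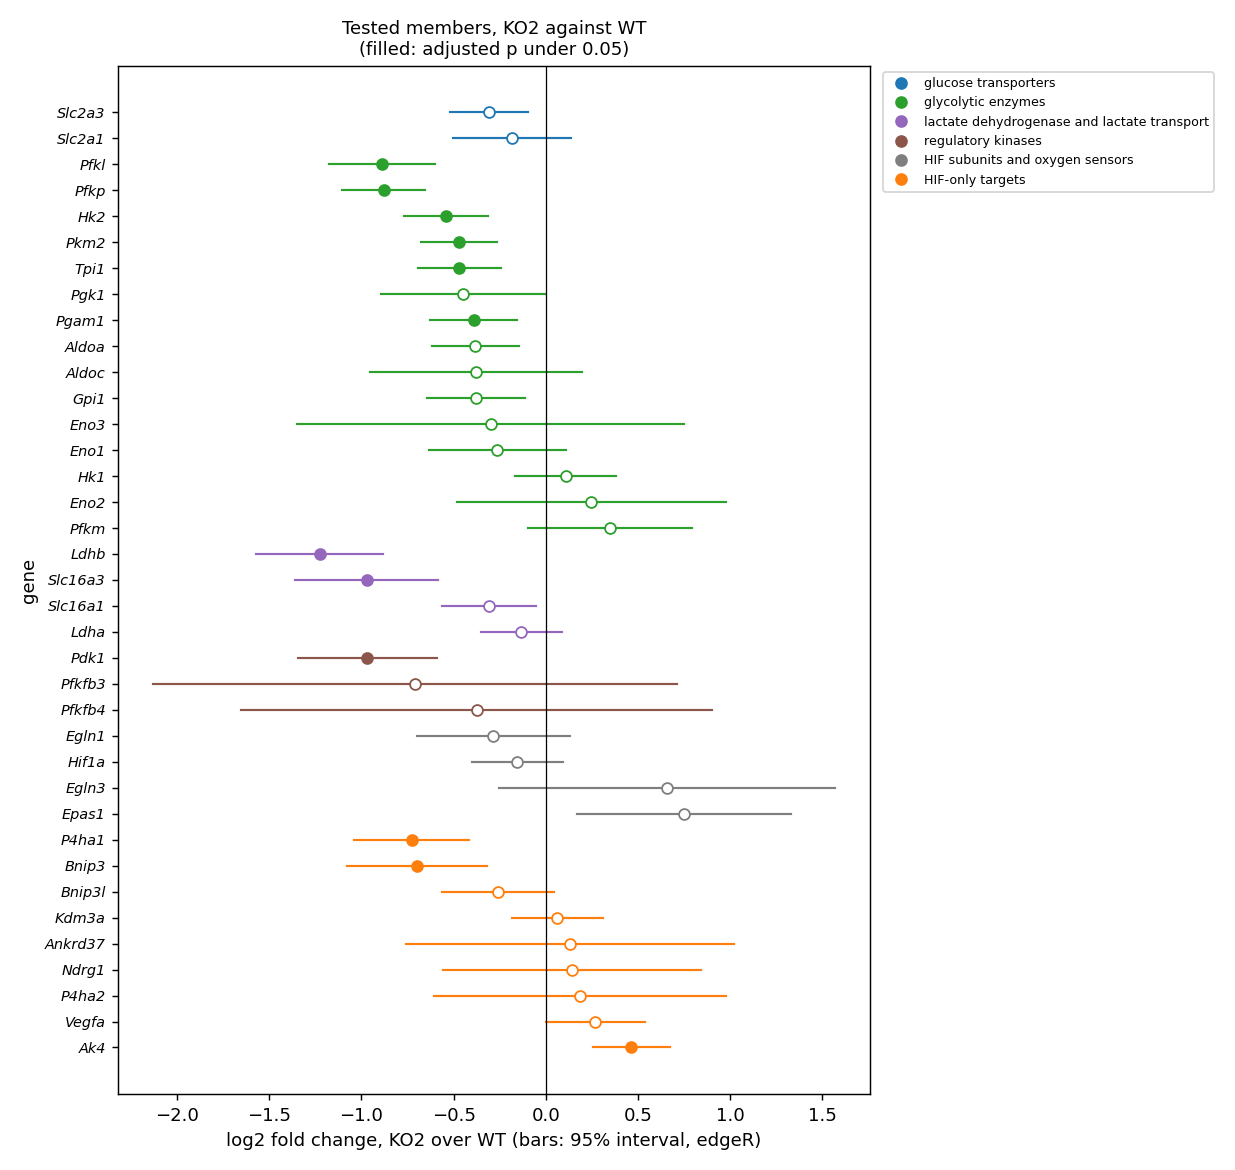
Log2 fold change of KO2 over WT (x axis) for the 37 tested genes (y axis), coloured by role. Bars are 95% intervals derived from the edgeR test, and filled points have an adjusted p below 0.05. The 6 called enzyme genes, *Ldhb*, *Slc16a3* and *Pdk1* lie left of 0, and among the HIF-only targets *Bnip3* and *P4ha1* lie left and *Ak4* lies right.

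The WT replicates did not lie equally far from KO2. WT replicate 2 was above WT replicate 1 for 27 of the 37 genes (73.0%, against 50.4% of all tested genes), with a median log2 ratio of 0.17 for these genes and 0.005 for all genes. In KO2, replicate 2 was above replicate 1 for 17 of the 37. Even so, both KO2 libraries lay below both WT libraries for 17 of the 37 genes (background 23.4% of tested genes) and above both for 5 (background 25.4%). Leaving out WT replicate 1 reduced the genes called to 6, all of them lower, and leaving out WT replicate 2 reduced them to 5, again all lower. *Pfkl*, *Pfkp* and *Ldhb* were called whichever library was left out. The calls also depended on the scaling and the filter, since with scaling to the ERCC spike-ins *Ldhb* alone was called, and with no filter on low counts *Pfkp* alone. In each of these fits fewer of all genes were called too, as given in the last section. DESeq2 called 13 of the genes, 11 of them among the 12 of edgeR, against 4.01% of the genes it tested. All 12 genes kept their direction in all 11 alternatives.

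**Figure D2:**
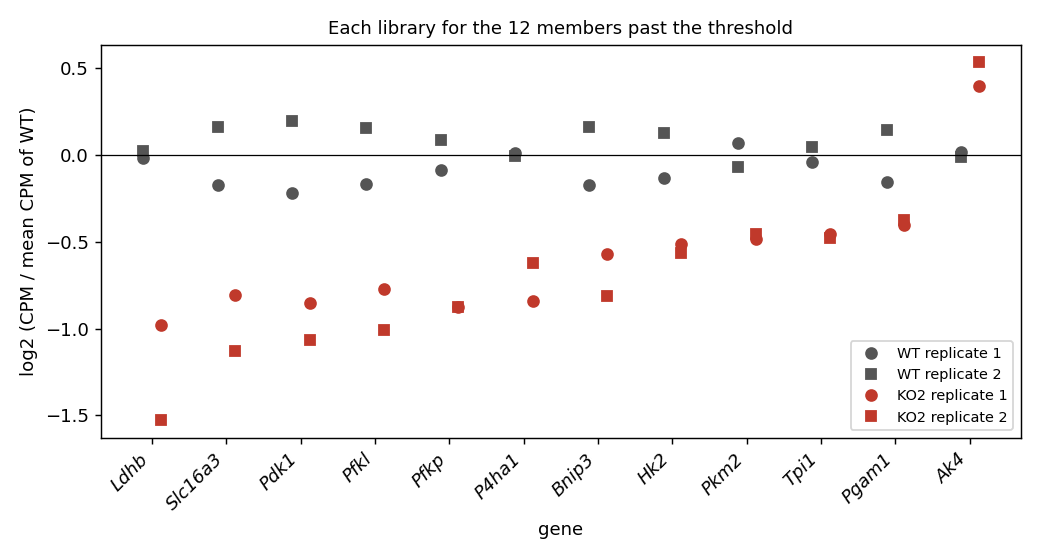
Log2 of the CPM of each library over the mean CPM of WT (y axis) for the 12 called genes (x axis), with grey points for WT, red points for KO2, circles for replicate 1 and squares for replicate 2. The groups do not overlap for any of the 12, and the WT replicates lie farthest apart for *Pdk1*.

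Glucose enters ESCs through facilitative transporters. *Slc2a3*, which encodes the high-affinity transporter GLUT3, had 2729 and 3141 CPM in WT and 2369 and 2376 CPM in KO2. The groups did not overlap, yet the log2 fold change of -0.31 ± 0.101 (SE) did not pass the threshold (adjusted p = 0.0854, edgeR; DESeq2 gave 0.0205). *Slc2a1*, which encodes the widespread transporter GLUT1, had 84.2 and 115 CPM in WT and 87.1 and 89.6 CPM in KO2, so that both KO2 libraries lay between the WT replicates. Per kilobase of exon (RPKM), GLUT3 transcripts made up 91.3% to 92.7% of the sum of both transporters in the 4 libraries.

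All calls among the 15 enzyme genes were toward lower levels in KO2. Of these genes, 6 were lower and none was higher past the threshold (3.04% of all tested genes were called lower), 12 had a log2 fold change below 0 (48.6% of all tested genes), and the median was -0.38. Summed over the 15 genes, the level was 5347 and 5751 CPM in WT and 4064 and 3913 CPM in KO2, which is 28.1% lower on average.

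The steps up to phosphofructokinase held the enzyme genes with the largest decreases. *Hk2* (ENSMUSG00000000628, chr6:82675019-82724448 on mm9, minus strand) encodes hexokinase 2, which phosphorylates glucose at the mitochondrial surface. It had 691 and 826 CPM in WT and 530.2 and 512 CPM in KO2, with a log2 fold change of -0.54 ± 0.108 (SE) and an adjusted p of 0.00494 (edgeR). Both KO2 libraries were below both WT libraries, but WT replicate 2 was the highest, and without it the adjusted p was 0.101 (edgeR). *Hk1*, the hexokinase gene of most adult tissues, had 126 and 153 CPM in WT and 147 and 155 CPM in KO2, with overlapping groups. Per kilobase, *Hk1* made up 11.3% and 11.5% of hexokinase RNA in WT and 16.3% and 17.5% in KO2. *Gpi1*, encoding glucose-6-phosphate isomerase, had 157 and 175 CPM in WT and 135 and 121 CPM in KO2 without passing the threshold (log2 fold change -0.38, adjusted p = 0.0937, edgeR).

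Phosphofructokinase catalyses the main regulated step of the pathway and is built from liver, muscle and platelet type subunits. *Pfkl* (ENSMUSG00000020277, chr10:77449692-77472828 on mm9, minus strand), the liver type, had 176 and 219 CPM in WT and 116 and 98.2 CPM in KO2. Its log2 fold change was -0.89 ± 0.137 (SE; adjusted p = 0.000551, edgeR). *Pfkp* (ENSMUSG00000021196, chr13:6579014-6648023 on mm9, minus strand), the platelet type and the most abundant of the 3 per kilobase, had 552 and 623 CPM in WT and 319.9 and 319 CPM in KO2. Its log2 fold change of -0.88 ± 0.107 (SE) had the smallest adjusted p of the 37 genes (4.53e-05, edgeR). The groups did not overlap for either gene, and the KO2 replicates of *Pfkp* were almost equal. *Pfkm*, the muscle type, had 26.8 and 26.2 CPM in WT and 35.6 and 31.8 CPM in KO2. The KO2 libraries were the higher ones here, but the log2 fold change of 0.35 ± 0.212 (SE) did not pass the threshold (adjusted p = 0.398, edgeR). Summed per kilobase, the 3 subunit genes had 107 and 125 RPKM in WT and 72.0 and 66.8 RPKM in KO2, and *Pfkm* made up 8.18% and 6.89% of that sum in WT and 16.2% and 15.6% in KO2.

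The genes of the middle steps had smaller fold changes. *Aldoa*, the main aldolase gene, had 634 and 726 CPM in WT and 565 and 478 CPM in KO2. The groups did not overlap, and its adjusted p lay just above the threshold (log2 fold change -0.38 ± 0.112 (SE), adjusted p = 0.0525, edgeR), falling below it in 4 of the 11 alternatives. *Aldoc*, the brain type aldolase gene, was low, at 21.6 ± 4.79 CPM (SD, n = 2) in WT and 16.3 ± 0.683 CPM (SD, n = 2) in KO2. *Tpi1* (ENSMUSG00000023456, chr6:124760604-124764314 on mm9, minus strand), encoding triosephosphate isomerase, had 384 and 408 CPM in WT and 289 and 284 CPM in KO2. Replicates were close in both groups and the log2 fold change was -0.47 ± 0.107 (SE; adjusted p = 0.0128, edgeR), although the adjusted p was 0.0601 without WT replicate 1 and 0.0918 without WT replicate 2. *Pgk1*, the phosphoglycerate kinase gene, had 33.9 and 52.9 CPM in WT and 30.8 and 34.0 CPM in KO2, so the groups overlapped. Only 31.7% of its exonic 50-base windows occur once in the genome, so that many of its reads could not be counted.

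The last steps before pyruvate included the gene with the highest level per kilobase by counted reads. *Pgam1* (ENSMUSG00000011752, chr19:41986361-41993154 on mm9, plus strand), encoding phosphoglycerate mutase, had 488 and 600.2 CPM in WT and 411 and 419 CPM in KO2. It passed the threshold narrowly (log2 fold change -0.39 ± 0.113 (SE), adjusted p = 0.0487, edgeR). That call was kept in 3 of 11 alternatives and in none of the 4 fits that left out a library (adjusted p 0.0504 to 0.351, edgeR). The log2 fold change was -0.23 without WT replicate 2 and -0.53 without WT replicate 1, and just 8.87% of its exonic windows are unique in the genome, so its level is uncertain. *Eno1*, the main enolase gene, had 120.0 and 169 CPM in WT and 146 and 96.6 CPM in KO2. Its replicates spread as widely as the groups, and the call turned on 1 library: without KO2 replicate 1 the log2 fold change was -0.59 (adjusted p = 0.0336, edgeR) against -0.26 with all libraries. The neuronal *Eno2* (8.98 to 14.7 CPM) and the muscle *Eno3* (4.14 to 8.20 CPM) were low and overlapped between the groups. *Pkm2* (ENSMUSG00000032294, chr9:59504383-59527182 on mm9, plus strand) is the pyruvate kinase gene, whose M1 and M2 splice forms are not separated by counts per gene. It had 1911 and 1741 CPM in WT and 1304 and 1330.2 CPM in KO2. By counted reads it stood above the other 39 genes, at 764 ± 50.3 RPKM (SD, n = 2) in WT and 551 ± 7.86 RPKM (SD, n = 2) in KO2. That rank was not corrected for reads that could not be counted, and 59.8% of the exonic windows of *Pkm2* are unique in the genome. Its log2 fold change was -0.47 ± 0.0983 (SE; adjusted p = 0.00676, edgeR). Unlike most of these genes, *Pkm2* was higher in WT replicate 1 than in replicate 2, and without WT replicate 1 its adjusted p was 0.145 (edgeR).

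Lactate dehydrogenase is a tetramer of A and B subunits. The A subunit, encoded by the HIF target *Ldha*, is the form typical of tissues that make lactate, and the B subunit, encoded by *Ldhb*, prevails in tissues that consume it, such as the heart. *Ldha* (ENSMUSG00000063229, chr7:54096845-54110997 on mm9, plus strand) had 648 and 734 CPM in WT and 653 and 609 CPM in KO2. KO2 replicate 1 lay between the WT replicates, and the log2 fold change was -0.13 ± 0.105 (SE), with a 95% interval from -0.35 to 0.09 and an adjusted p of 0.537 (edgeR). *Ldhb* (ENSMUSG00000030246, chr6:142438769-142456477 on mm9, minus strand) had 129 and 133 CPM in WT and 66.3 and 45.4 CPM in KO2. Here the WT replicates were almost equal and both KO2 replicates far below them, so that *Ldhb* had the largest decrease among the 37 genes, with a log2 fold change of -1.23 ± 0.164 (SE), a 95% interval from -1.57 to -0.88 and an adjusted p of 0.000125 (edgeR). The KO2 replicates differed from each other, and the log2 fold change of *Ldhb* was -0.98 without KO2 replicate 2.

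Within each library, the ratio of *Ldha* to *Ldhb* CPM does not depend on the scaling between libraries. Taken from log2 CPM with a prior count of 2, it was 5.02 and 5.53 in WT and 9.79 and 13.3 in KO2. Without the prior count it was 5.03 and 5.54 in WT and 9.84 and 13.4 in KO2. On the log2 scale the mean ratio was 2.40 ± 0.0988 (SD, n = 2) in WT and 3.51 ± 0.312 (SD, n = 2) in KO2, a difference of 1.12. An exact two-sided permutation test gave p = 0.333, the smallest value that 2 against 2 samples allow. The 95% intervals of the 2 genes' fold changes did not overlap. Per kilobase, *Ldhb* made up 27.4% and 25.5% of lactate dehydrogenase RNA in WT and 16.2% and 12.4% in KO2, while the sum of both genes was 299.6 and 331 RPKM in WT and 261 and 233 RPKM in KO2.

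**Figure D3:**
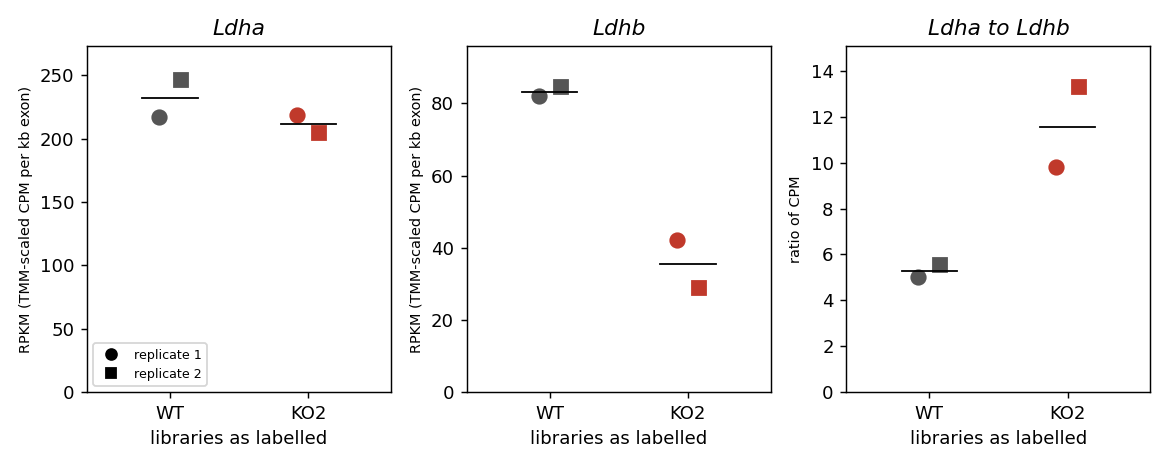
Levels of *Ldha* (left) and *Ldhb* (middle) in RPKM and the ratio of their CPM with a prior count of 2 (right) in each library, by label (x axis). Circles stand for replicate 1, squares for replicate 2 and lines for the mean of 2. The *Ldha* points overlap between the groups, the *Ldhb* points lie at 82.1 and 84.4 RPKM in WT and at 42.2 and 28.9 RPKM in KO2, and the ratio is 5.02 and 5.53 in WT and 9.79 and 13.3 in KO2.

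Both lactate transporter genes were below WT in both KO2 libraries. *Slc16a3* (ENSMUSG00000025161, chr11:120809794-120822182 on mm9, plus strand) encodes MCT4, the lactate exporter of glycolytic cells and a HIF target. It had 57.8 and 72.8 CPM in WT and 37.3 and 29.8 CPM in KO2, with a log2 fold change of -0.97 ± 0.185 (SE; adjusted p = 0.0035, edgeR). Without WT replicate 2, the higher of the WT replicates, the adjusted p was 0.0701 (edgeR). *Slc16a1*, encoding the more widespread transporter MCT1, had 188 and 217 CPM in WT and 162 and 165 CPM in KO2, and its log2 fold change of -0.31 ± 0.121 (SE) did not pass the threshold (adjusted p = 0.163, edgeR). *Slc16a3* made up 20.4% and 21.8% of the sum of both per kilobase in WT and 16.1% and 13.0% in KO2.

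**Figure D4:**
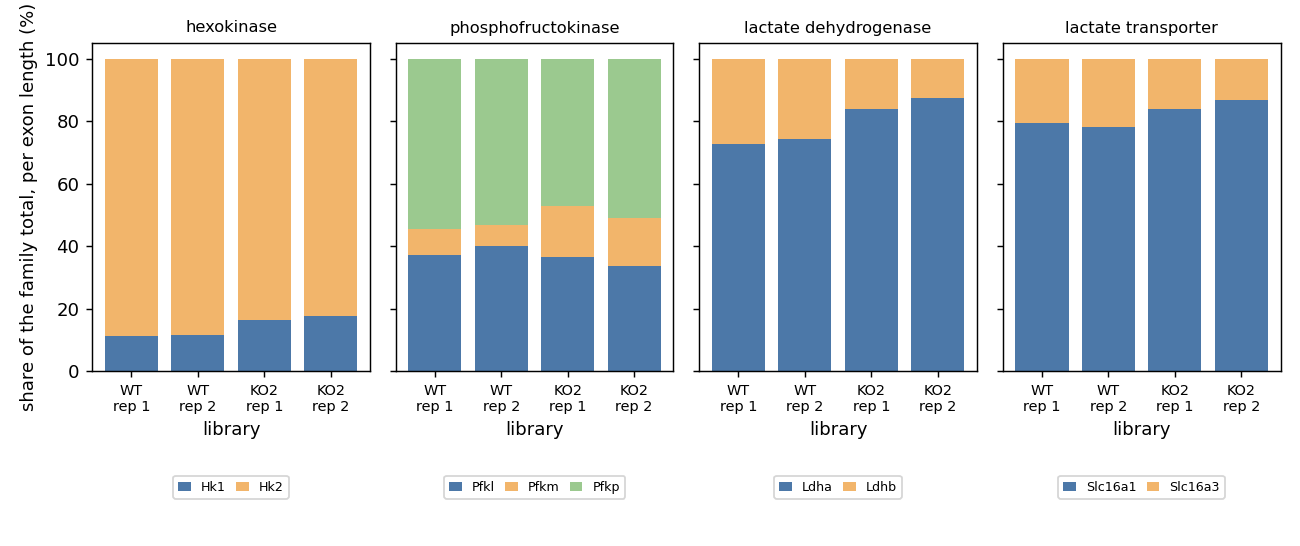
Share of each gene in the summed RPKM of its family (y axis, percent) in each library (x axis), for hexokinase, phosphofructokinase, lactate dehydrogenase and the lactate transporters. In both KO2 libraries *Hk1*, *Pfkm*, *Ldha* and *Slc16a1* make up a larger share than in either WT library, with *Pfkm* at 8.18% and 6.89% in WT and 16.2% and 15.6% in KO2.

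The 3 regulatory kinase genes steer the use of pyruvate or the flux through phosphofructokinase. *Pdk1* (ENSMUSG00000006494, chr2:71711281-71741915 on mm9, plus strand), a HIF target whose product shuts off the pyruvate dehydrogenase complex, had 61.9 and 82.5 CPM in WT and 39.9 and 34.5 CPM in KO2. The groups did not overlap, although the WT replicates differed by 0.41 on the log2 scale, and the log2 fold change was -0.97 ± 0.179 (SE; adjusted p = 0.00271, edgeR). Without WT replicate 2 the adjusted p was 0.0678 (edgeR). *Pfkfb3* and *Pfkfb4*, which encode enzymes that make and degrade the activator of phosphofructokinase, were near the lower limit of these libraries, with 9 to 25 counts (1.14 to 4.84 CPM) and 11 to 26 counts (2.54 to 5.59 CPM), and overlapped between the groups. A difference in these 2 genes was not detectable at this depth, as their 95% intervals ran from -2.13 to 0.71 and from -1.65 to 0.90.

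None of the genes of the HIF alpha subunits and oxygen sensors passed the threshold. *Hif1a* had 292 and 311 CPM in WT and 246 and 297 CPM in KO2, so that KO2 replicate 2 lay between the WT replicates, and its log2 fold change was -0.15 ± 0.118 (SE; adjusted p = 0.526, edgeR). *Epas1*, which encodes HIF-2 alpha, was much lower, at 13.8 and 13.0 CPM in WT and 21.8 and 23.1 CPM in KO2. Its replicates were close and the KO2 libraries were higher, but the log2 fold change of 0.75 ± 0.277 (SE) did not pass the threshold (adjusted p = 0.131, edgeR). *Egln1*, the main oxygen sensor gene, had 37.6 and 54.8 CPM in WT and 40.3 and 36.8 CPM in KO2. *Egln3*, a sensor gene that HIF itself induces, had 5.59 and 5.91 CPM in WT and 7.74 and 10.6 CPM in KO2, with a log2 fold change of 0.66 ± 0.435 (SE; adjusted p = 0.447, edgeR).

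The HIF-only targets did not share a direction. Of 12 listed, 9 were tested, 2 were lower, 1 was higher and 6 did not pass the threshold. The called shares were 22.2% lower and 11.1% higher, against 3.04% and 2.61% of all tested genes. Of the 9 log2 fold changes, 3 lay below 0, and the median was 0.13 (enzymes: 12 of 15 below 0, median -0.38). That positive median rested on single libraries, and was -0.008 without WT replicate 1 and -0.11 without KO2 replicate 2, whereas the median of the enzymes stayed between -0.48 and -0.30 in the 11 alternatives. The difference between the medians of the 2 groups was not tested.

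*P4ha1* (ENSMUSG00000019916, chr10:58786044-58836052 on mm9, plus strand), encoding a catalytic subunit of the prolyl hydroxylase that matures collagen, had 96.9 and 95.9 CPM in WT and 53.9 and 62.7 CPM in KO2. The WT replicates were almost equal, and the log2 fold change was -0.73 ± 0.149 (SE; adjusted p = 0.00578, edgeR). The adjusted p was 0.0554 without WT replicate 1 and 0.0581 without KO2 replicate 1 (edgeR). Its paralogue *P4ha2* had 6.71 and 11.1 CPM in WT and 10.9 and 10.2 CPM in KO2, with overlapping groups, and made up 4.37% and 7.09% of the sum of both per kilobase in WT and 11.8% and 9.65% in KO2.

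*Bnip3* (ENSMUSG00000078566, chr7:146082519-146101202 on mm9, minus strand), a mitophagy receptor gene, had 53.3 and 67.1 CPM in WT and 40.6 and 34.2 CPM in KO2. Its log2 fold change was -0.70 ± 0.182 (SE; adjusted p = 0.0294, edgeR), but DESeq2 gave an adjusted p of 0.0905. The adjusted p was 0.0504 without WT replicate 1, 0.213 without WT replicate 2 and 0.121 without KO2 replicate 2 (edgeR), and 54.8% of its exonic windows are unique in the genome. *Bnip3l*, the related receptor gene, had 82.4 and 92.9 CPM in WT and 73.5 and 73.3 CPM in KO2 without passing the threshold (log2 fold change -0.26, adjusted p = 0.342, edgeR).

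*Ak4* (ENSMUSG00000028527, chr4:101091882-101140376 on mm9, plus strand), encoding a mitochondrial adenylate kinase, went the other way, with 894 and 877 CPM in WT and 1163 and 1279 CPM in KO2. Both KO2 libraries were above both WT libraries, and the log2 fold change was 0.46 ± 0.0997 (SE; adjusted p = 0.00858, edgeR). The adjusted p was 0.103 without WT replicate 1 and 0.1004 without WT replicate 2 (edgeR). *Ak4* was the most abundant HIF-only target and dominated their sum, which was 1464 and 1496 CPM in WT and 1712 and 1845 CPM in KO2. Without *Ak4* the sum was 569 and 619 CPM in WT and 549 and 566 CPM in KO2.

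The remaining HIF-only targets did not pass the threshold. *Vegfa*, the gene of the main angiogenic growth factor, had 116 and 127 CPM in WT and 154 and 139.8 CPM in KO2. Both KO2 libraries were higher, with a log2 fold change of 0.27 ± 0.128 (SE) and an adjusted p of 0.257 (edgeR). *Kdm3a*, encoding a histone H3 lysine 9 demethylase, had 196 and 201 CPM in WT and 197 and 218 CPM in KO2, and its 95% interval ran from -0.18 to 0.31. *Ndrg1* (11.2 to 17.6 CPM) and *Ankrd37* (6.34 to 9.09 CPM) were low and overlapped between the groups. *Car9* and *Car12*, which encode membrane carbonic anhydrases, and *Adm*, the adrenomedullin gene, were not tested, since *Car9* had at most 2 counts in any library, *Car12* at most 7 and *Adm* 0, 0, 1 and 0. The level that 3 counts give was 1.12 and 0.709 CPM for WT and 0.380 and 0.401 CPM for KO2.

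Genes of neighbouring pathways were followed in 6 further lists. No gene passed the threshold among 8 tested genes of the list of other glycolysis genes, among 12 of the pyruvate dehydrogenase complex and its regulators, or among 7 of the pentose phosphate pathway. Their median log2 fold changes were -0.08, -0.05 and 0.06. *Gapdh*, the glycolytic enzyme gene often used as a reference, had 79.4 and 107 CPM in WT and 99.7 and 85.5 CPM in KO2, with a log2 fold change of -0.02 ± 0.157 (SE). Just 49.8% of its exonic windows are unique, so its level is uncertain too.

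Among 13 tested genes of gluconeogenesis and glycogen metabolism, 1 was higher and none lower (2.61% and 3.04% of all tested genes). It was *Fbp2*, encoding the muscle type fructose-bisphosphatase, which reverses the phosphofructokinase step. *Fbp2* had 51.1 and 50.1 CPM in WT and 121 and 127 CPM in KO2, with replicates close in both groups and a log2 fold change of 1.29 ± 0.144 (SE; adjusted p = 1.66e-05, edgeR). *Pygl*, the liver glycogen phosphorylase gene, had a log2 fold change of 1.07 without passing the threshold (adjusted p = 0.0511, edgeR).

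Among 11 tested regulators of HIF, *Tceb1*, encoding the elongin C subunit of the VHL ligase, was higher, with 157 and 144 CPM in WT and 262 and 264 CPM in KO2 (log2 fold change 0.81 ± 0.117 (SE), adjusted p = 0.000259, edgeR). *Cited2*, whose product competes with HIF for the coactivators CBP and p300, was lower, with 26.1 and 35.4 CPM in WT and 17.2 CPM in both KO2 libraries (log2 fold change -0.86 ± 0.243 (SE), adjusted p = 0.0447, edgeR). Of the 11 regulators 1 was thus called in each direction, against 2.61% of all tested genes called higher and 3.04% called lower. *Vhl* itself and *Arnt* had log2 fold changes of -0.02 and 0.05.

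A further list held HIF targets outside glycolysis beyond the 12 above. Of 28 listed and 23 tested, 5 were lower and none was higher (3.04% of all tested genes were called lower), 19 had a log2 fold change below 0 (48.6% of all tested genes), and the median was -0.36. *Plod2*, a lysyl hydroxylase gene of collagen maturation like *P4ha1*, had 163 and 224 CPM in WT and 110.2 and 107 CPM in KO2 (log2 fold change -0.84, adjusted p = 0.0013, edgeR). *Ero1l*, an oxidase gene of protein folding, had 186 and 205 CPM in WT and 116 and 141 CPM in KO2 (log2 fold change -0.61, adjusted p = 0.00803, edgeR). *Tfrc*, the transferrin receptor gene, had 2033 and 1948 CPM in WT and 1026 and 1224 CPM in KO2 (log2 fold change -0.82, adjusted p = 7.48e-05, edgeR). *Loxl2*, a lysyl oxidase family gene, was low, with 8.94 and 11.3 CPM in WT and 2.92 and 2.94 CPM in KO2 (log2 fold change -1.81, adjusted p = 0.0263, edgeR). Neither list of HIF targets was tested against the other, and *Tfrc* is also known to respond to iron.

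**Figure D5:**
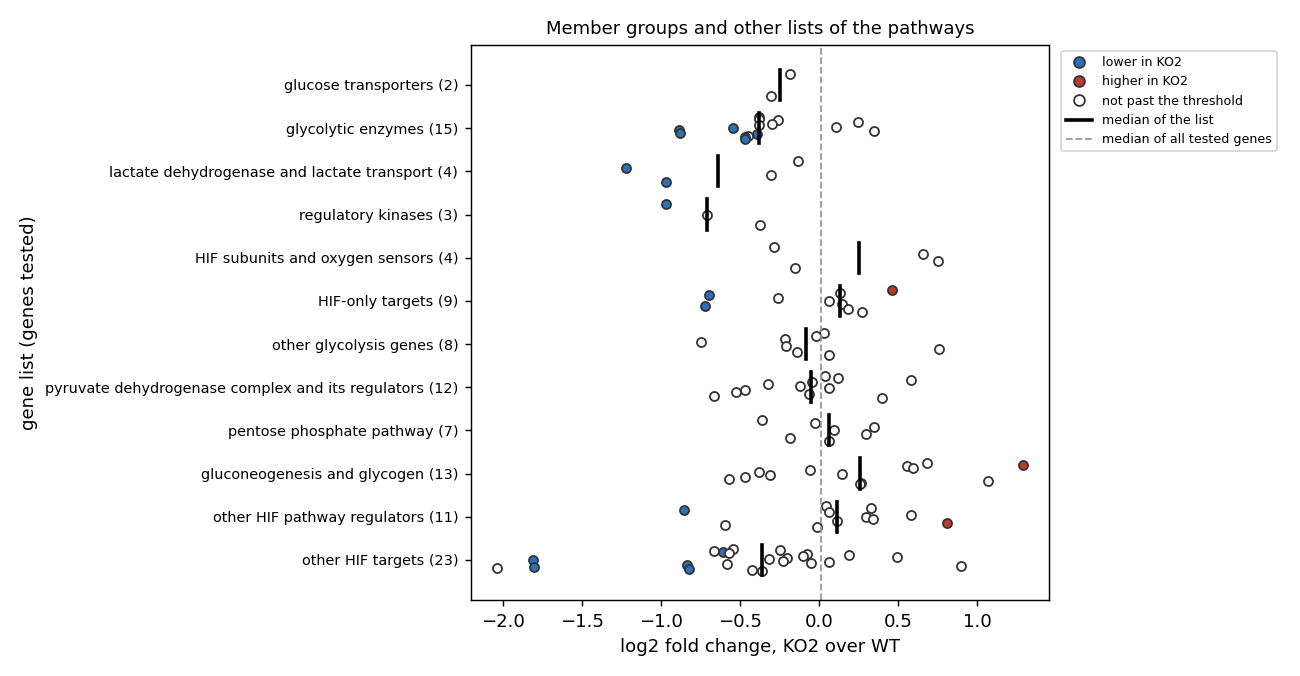
Log2 fold change of KO2 over WT (x axis) for the tested genes of each list (y axis, number tested in brackets), with blue points for genes called lower, red points for genes called higher, black bars for the median of the list and a dashed line for the median of all tested genes. Enzymes, lactate genes and the further HIF targets lie mostly left of the line with medians of -0.38, -0.64 and -0.36, and the HIF-only targets lie on both sides with a median of 0.13.

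HIF binds DNA at hypoxia response elements, whose core is ACGTG or GCGTG. To show how the promoters of called and uncalled genes read, ACGTG was searched on both strands (CACGT on the strand shown) in windows of 250 bases before to 50 bases after each transcription start (RefSeq, GRCm38.p6), which held 36 of the 40 genes. At least 1 window of 23 of these 36 genes held it, against 21.8% of all genes with a window, and by windows it was 26 of 55 (47.3%) against 19.6% of all 32851. The same letters form part of CACGTG, the E-box bound by MYC and other factors, and a match does not show binding. GCGTG was not searched, so a window without a match can still hold that core, as the windows of *Ldhb*, *Pfkl* and *Pfkp* do. Of the 11 genes lower in KO2, 6 had a match, and of the 21 tested, uncalled genes with a window, 15 had one. The windows of *Ldha* and *Ldhb*, the pair compared above, follow first, then *Hk2*, *Slc16a3* and *P4ha1*, which were lower and held a match, and *Pfkl*, which was lower and held none. Each is printed 5′ to 3′ on the strand of the gene, with every match in capitals.
Ldha, chr7:46845554-46845853 on GRCm38.p6, plus strand: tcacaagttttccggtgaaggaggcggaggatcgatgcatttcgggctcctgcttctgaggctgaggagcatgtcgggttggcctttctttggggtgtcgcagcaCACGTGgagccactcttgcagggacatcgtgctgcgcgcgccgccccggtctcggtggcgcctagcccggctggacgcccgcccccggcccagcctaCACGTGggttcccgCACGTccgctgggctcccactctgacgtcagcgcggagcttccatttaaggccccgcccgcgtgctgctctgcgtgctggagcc
Ldhb, chr6:142507908-142508207 on GRCm38.p6, minus strand: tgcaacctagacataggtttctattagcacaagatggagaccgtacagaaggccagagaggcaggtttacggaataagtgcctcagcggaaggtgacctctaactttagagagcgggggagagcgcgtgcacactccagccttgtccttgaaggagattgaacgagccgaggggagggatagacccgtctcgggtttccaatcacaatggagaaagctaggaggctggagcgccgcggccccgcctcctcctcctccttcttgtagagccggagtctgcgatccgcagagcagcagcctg
Hk2, chr6:82774405-82774704 on GRCm38.p6, minus strand: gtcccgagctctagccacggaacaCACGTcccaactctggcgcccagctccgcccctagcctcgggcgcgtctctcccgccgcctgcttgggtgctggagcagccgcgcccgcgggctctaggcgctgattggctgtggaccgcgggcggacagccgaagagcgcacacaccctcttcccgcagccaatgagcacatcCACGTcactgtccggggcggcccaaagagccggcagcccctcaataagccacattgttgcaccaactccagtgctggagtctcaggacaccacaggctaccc
Slc16a3, chr11:120948817-120949116 on GRCm38.p6, plus strand: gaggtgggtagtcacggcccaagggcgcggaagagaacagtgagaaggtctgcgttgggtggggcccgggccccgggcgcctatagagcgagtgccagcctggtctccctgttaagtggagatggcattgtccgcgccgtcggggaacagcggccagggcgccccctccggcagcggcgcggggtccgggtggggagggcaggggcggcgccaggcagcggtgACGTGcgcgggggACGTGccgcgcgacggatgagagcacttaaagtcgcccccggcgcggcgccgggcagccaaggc
P4ha1, chr10:59323046-59323345 on GRCm38.p6, plus strand: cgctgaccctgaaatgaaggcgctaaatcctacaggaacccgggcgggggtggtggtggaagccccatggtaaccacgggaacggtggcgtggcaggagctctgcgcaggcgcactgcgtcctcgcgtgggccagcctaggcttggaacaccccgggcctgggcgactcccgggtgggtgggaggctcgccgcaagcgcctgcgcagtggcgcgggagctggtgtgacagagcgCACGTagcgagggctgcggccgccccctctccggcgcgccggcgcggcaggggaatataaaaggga
Pfkl, chr10:78009758-78010057 on GRCm38.p6, minus strand: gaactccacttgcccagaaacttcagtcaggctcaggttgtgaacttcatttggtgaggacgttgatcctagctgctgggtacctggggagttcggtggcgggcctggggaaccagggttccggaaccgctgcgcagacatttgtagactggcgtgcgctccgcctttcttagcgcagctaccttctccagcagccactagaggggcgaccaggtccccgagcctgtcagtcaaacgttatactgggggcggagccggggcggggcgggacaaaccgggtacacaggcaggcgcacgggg
The first *Ldha* window held 5 matches, 4 of them within 2 CACGTG palindromes, and its second window held none. The single window of *Ldhb* held no ACGTG. Among the phosphofructokinase genes, *Pfkl* and *Pfkp* had no match to ACGTG. The 4 windows of *Pfkm* had 3, 1, 0 and 0, with 2 of the 3 in 1 palindrome.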

How the data were processed

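RNA-seq counts of 2 WT and 2 KO2 libraries were used, grouped by their labels, which call them biological replicates. The methods give duplicate RNA isolations, so p-values measure the spread between isolations. According to the methods, HISAT2 was used for mapping (mm9) and HTSeq for counting, and the deposited values are raw counts per gene and library, neither normalized nor pooled by the authors. Versions, annotation and counting options are not given in the sources used here. Reads that mapped to several places (35.6% to 40.4% of all) were not counted on genes, which lowers genes with pseudogenes. HTSeq's summary rows and the 92 ERCC rows were kept out of library sizes.

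From these counts, genes were filtered with filterByExpr (minimum count 10, minimum total 15), scaled by TMM and tested in edgeR 4.0.16 (R 4.3.3, quasi-likelihood test, legacy=FALSE, condition as the only term), with Benjamini-Hochberg adjustment over 12883 genes. RPKM is TMM-scaled CPM per kilobase of merged exons in the GENCODE annotation of mm9. Uniqueness is the share of exonic 50-base windows that occur once in that genome. The fit was tested on simulated counts. At these depths 3 counts correspond to 0.380 to 1.12 CPM.

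The genes and lists were chosen with earlier results of these data known. All 40 genes were to be named, and up to 5 called genes of each further list, with *Gapdh*. The values of 1 called gene of these lists are not reported here. *Pygl*, *Vhl* and *Arnt* were named after their values were seen. The 11 alternatives were RLE scaling, ERCC scaling, no filter, at least 10 counts in every sample, the older quasi-likelihood method, DESeq2 1.42.0, the replicate number as a block and leaving out each library in turn. For the *Ldha* to *Ldhb* ratio, leaving out libraries was added after seeing the data. Gene symbols were found for 32782 of 48526 rows.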

Additional observations from a re-analysis of the deposited data

How the results depend on the processing

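Of the 37 tested genes, 26 kept the sign of their log2 fold change in every alternative that gave a value, and the 11 that did not were all uncalled and changed sign only when a library was left out. *Pfkfb3* gave no value with at least 10 counts in every sample. With ERCC scaling, 1 of the genes was called (0 higher, 1 lower), and of all genes 163 (90 higher, 73 lower). With no filter on low counts, 1 was called (0 higher, 1 lower), and of all genes 61 (29 higher, 32 lower). DESeq2 called 13 of the genes, 11 of them shared with edgeR, and 454 of all genes (189 higher), against 727 (336 higher, 391 lower) with edgeR. Leaving out a library left 5 to 12 of the genes called (0 to 1 higher, 5 to 11 lower) and 270 to 691 of all genes (122 to 341 higher, 148 to 350 lower). In those fits the lone library of a group is assumed to vary like the other group. The cause of these changes was not tested. The log2 difference of the *Ldha* to *Ldhb* ratio was 0.89 to 1.34 when a library was left out. With the replicate number as a block, 13 of the genes (1 higher, 12 lower) and 950 of all genes were called. Same-numbered libraries deviated from their group means with a correlation of -0.0066 over genes, so the numbers were not taken to pair the samples. Genes below about 1 CPM cannot be compared at the depth of the WT libraries.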
